A study of Homo sapiens with 24 samples.

Results

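The 6 genes described here were *COX4I1*, *COX4I2*, *LONP1*, *NDUFA4*, *NDUFA4L2* and *HIGD1A*, chosen by name for their roles at cytochrome c oxidase (complex IV of the respiratory chain) and its adjustment to low oxygen, out of 23106 gene symbols counted. RNA-seq of poly(A) RNA was performed in 4 established human cancer cell lines, each with 3 normoxia libraries (21% oxygen) and 3 hypoxia libraries (0.5% oxygen for 16 h). A549 is a lung cancer line, HCT-116 a colorectal cancer line, PC3 a prostate cancer line and T47D a breast cancer line. A549 and PC3 were grown in F12K medium, HCT-116 in McCoy's 5a and T47D in DMEM, so that line and medium cannot be told apart except between A549 and PC3. All medium contained serum, glutamine, penicillin and streptomycin, and the labels name no gene manipulation or drug treatment.

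Complex IV passes electrons from cytochrome c to oxygen at the end of the respiratory chain. Its subunit 4 exists as a widely expressed isoform, encoded by *COX4I1*, and a second isoform, encoded by *COX4I2*, which is known from lung and from cells in low oxygen. *LONP1* encodes the LON protease of the mitochondrial matrix, for which the COX4-1 protein is a known substrate in hypoxic cells. *NDUFA4* encodes a small subunit first assigned to complex I and later to complex IV, and *NDUFA4L2* encodes its paralog, known as a target of HIF-1, the hypoxia-inducible transcription factor. *HIGD1A* encodes a small inner membrane protein of the hypoxia-inducible domain family that binds complex IV. A switch would appear in RNA as *COX4I2* rising against *COX4I1*, or *NDUFA4L2* against *NDUFA4*.

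The genes are given on build GRCh37. *COX4I1* lies on the plus strand at chr16:85832239-85840674 and *COX4I2* on the plus strand at chr20:30225715-30232809. *LONP1* lies on the minus strand at chr19:5691845-5720583, *NDUFA4* on the minus strand at chr7:10971570-10979780, *NDUFA4L2* on the minus strand at chr12:57628686-57634498 and *HIGD1A* on the minus strand at chr3:42824400-42845982. The sequence below lies within the 250 bases before the annotated start site of the reference transcript chosen for the gene, and outside annotated exons. For *LONP1*, *COX4I1* and *NDUFA4L2* this start site lies inside the gene interval given above, so their windows are not at its 5′ end. It is shown for *LONP1*, the member that rose in all 4 lines. It reads 5′ to 3′ on the strand of the gene, and capitals mark matches on either strand to GCGTG or ACGTG, the core letters of the HIF binding motif, and to CACGTG, which holds ACGTG on both strands.
LONP1 (chr19:5720177-5720229, minus strand): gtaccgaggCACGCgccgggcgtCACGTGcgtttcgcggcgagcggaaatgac
Over its full window of 250 bases, *LONP1* held CACGTG 2 times, starting 212 and 49 bases before the start site, and GCGTG 2 times, at 86 and 63 bases. Among the 18751 promoter windows of the same length, 40.8% held GCGTG, 20.6% ACGTG, 51.8% either of these and 7.88% CACGTG. No GCGTG or ACGTG match lay in the windows of *COX4I1*, *NDUFA4* or *NDUFA4L2*, and *HIGD1A* held 1 ACGTG match and 2 GCGTG matches. These matches describe letters in a window and no binding was measured here.

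Library totals ranged from 22698584 to 62850747 counts assigned to genes, so that 3 counts corresponded to between 0.0477 and 0.132 CPM (counts scaled to the library total). *ESR1*, *PGR*, *GATA3* and *FOXA1* were highest in T47D and *AKR1B10* and *AKR1C1* in A549. *HOXB13* was highest in PC3, where *KLK3* was at 0. *EPCAM* was 312 CPM in normoxic HCT-116, but the intestinal markers *CDX1*, *CDH17* and *LGALS4* were at 0 to 0.0739 CPM there, and *SFTPB* and *NKX2-1* were at 0 to 0.0246 CPM in A549. Of 5 established hypoxia-induced genes (*CA9*, *VEGFA*, *EGLN3*, *PDK1*, *ADM*), 5 were upregulated in each of A549, HCT-116 and T47D and 4 in PC3, where *PDK1* was not called. *ADM* is on a gene list that the study chose partly on these libraries. The study also found *EGLN3* and *PDK1* induced in most of its lines, partly from these libraries. The calls of these genes are therefore not independent evidence. RNA composition differed with oxygen. Each gene's log2 level was first set against its own mean over the libraries of its line. On this scale, genes with transcripts under 42% GC were compared with the others by their medians. The difference was higher in all 3 normoxia than in all 3 hypoxia libraries of every line. It was 0.0301 to 0.41 in normoxia and -0.29 to -0.0435 in hypoxia. The *NDUFA4* and *HIGD1A* transcripts are 39.4% and 37.2% GC, whereas *LONP1* is 62.6%, *COX4I1* 52.7%, *COX4I2* 59.5% and *NDUFA4L2* 63.2%.

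A gene was called when its adjusted p (edgeR quasi-likelihood test, Benjamini-Hochberg over all genes tested in that line) was below 0.05 and its fold change above 1.2. In A549, 1 of 5 tested members was upregulated and 2 downregulated, against 17.6% and 17.8% of all genes tested. In HCT-116, 1 of 5 was upregulated and 3 downregulated, against 23.3% and 27.0% of all genes. In PC3, 1 of 4 tested members was upregulated and 1 downregulated, against 16.6% and 15.7%. In T47D, 1 of 5 was upregulated and 2 downregulated, against 6.55% and 6.69%. *COX4I2* was tested in no line and *NDUFA4L2* was not tested in PC3, because their counts were below the filter. On levels scaled by TMM within each line, the 3 hypoxia libraries did not overlap the 3 normoxia libraries for some members. These were 2 members in A549, 4 in HCT-116, 2 in PC3 and 2 in T47D. The same held for 48.1%, 60.3%, 51.4% and 32.5% of all genes. The levels of every member in every library are plotted first.

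**Figure D1:**
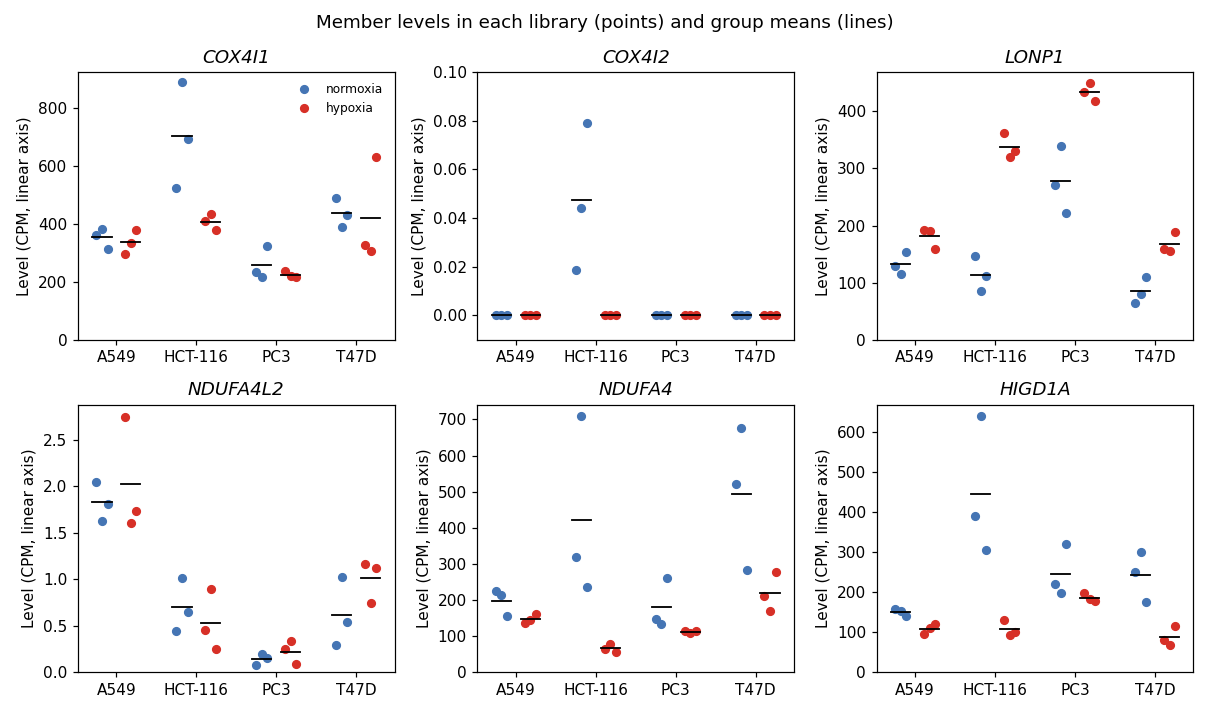
Level of each member gene (CPM, linear axis, a separate range per panel) in the 3 normoxia (blue) and 3 hypoxia (red) libraries of each line, with group means as black lines. *COX4I2* is at 0 except in the 3 HCT-116 normoxia libraries, *LONP1* is higher in hypoxia in every line, and *NDUFA4* and *HIGD1A* have lower hypoxia means in every line.

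*COX4I2*, the alternative isoform of subunit 4, was close to undetected in these lines. It received 8 counts among 1232369545 over all 24 libraries, and 21 libraries had 0. All 8 counts came from normoxic HCT-116, with 1, 2 and 5 counts in replicates 1, 2 and 3, and the 3 hypoxic HCT-116 libraries had 0. A pooled count of 0 allowed up to 0.0172 CPM in A549 hypoxia, 0.0209 CPM in HCT-116 hypoxia, 0.0199 CPM in PC3 hypoxia and 0.0170 CPM in T47D hypoxia, counting error alone. Expressed against both isoforms, 0 counts in hypoxia allowed a *COX4I2* share of at most 0.00581% in A549, 0.00511% in HCT-116, 0.00884% in PC3 and 0.00407% in T47D. No rise of *COX4I2* in hypoxia was seen in any of the 4 lines, and these limits bound what the depth could have missed.

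*COX4I1*, the common isoform, was lower in hypoxia in HCT-116 and was not called in the other lines. In HCT-116 it was 526, 892 and 693 CPM in normoxia and 409, 434 and 380.3 CPM in hypoxia. Every hypoxia library was below every normoxia library, with a log2 fold change of -0.82 (SE 0.24, adjusted p = 0.0114 by edgeR). In bulk libraries of a single line, a fall in every cell and a larger fall in some of the cells cannot be told apart. In A549 the normoxia libraries were 363, 384 and 313 CPM and the hypoxia libraries 298, 334 and 378 CPM, which overlapped (log2 fold change -0.06, 95% interval -0.33 to 0.20). In PC3 it was 233, 215 and 322 CPM in normoxia and 237, 219 and 215 CPM in hypoxia, again overlapping (-0.22, -0.55 to 0.10). In T47D it was 491, 388 and 431 CPM in normoxia and 327, 308 and 632 CPM in hypoxia, where hypoxia replicate 3 stood above all others (-0.08, -0.70 to 0.54). Without that library the T47D value was -0.48 (-0.94 to -0.02, adjusted p = 0.123), and without normoxia replicate 3, the highest in PC3, the PC3 value was -0.02 (adjusted p = 0.870). The HCT-116 call was lost without hypoxia replicate 3 (-0.72, adjusted p = 0.0834) and with a correction for transcript GC content and length (-0.22, adjusted p = 0.323), and without normoxia replicate 2, the highest library, the value was -0.52 (adjusted p = 0.0435).

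*LONP1*, the matrix protease gene, was upregulated in all 4 lines and in each the hypoxia libraries lay above all normoxia libraries. In A549 it was 129, 115 and 154 CPM in normoxia and 193, 191 and 159.6 CPM in hypoxia (log2 fold change 0.45, SE 0.13, adjusted p = 0.0188). In HCT-116 it was 146, 85.4 and 111 CPM in normoxia and 362, 321 and 330.1 CPM in hypoxia. This was the largest of the 4 values (1.55, SE 0.22, adjusted p = 0.000202). In PC3, the line with the highest normoxic level, it was 272, 339 and 223 CPM in normoxia and 434, 450.0 and 418 CPM in hypoxia (0.62, SE 0.13, adjusted p = 0.00863). In T47D it was 65.0, 80.2 and 110.2 CPM in normoxia and 159.7, 155 and 189 CPM in hypoxia (0.96, SE 0.22, adjusted p = 0.0159).

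*LONP1* belongs to a gene list that the study chose partly on these libraries, so its direction here is not independent evidence. With the GC and length correction the log2 fold change was 0.95 in HCT-116 (adjusted p = 0.00197), 0.35 in PC3 (adjusted p = 0.0287), 0.66 in T47D (adjusted p = 0.0374) and 0.19 in A549, where it was not called (adjusted p = 0.160). The call was also lost in A549 without normoxia replicate 1 (0.43, adjusted p = 0.0674), normoxia replicate 2 (0.36, adjusted p = 0.0924) or hypoxia replicate 2 (0.42, adjusted p = 0.0724), and in T47D without normoxia replicate 1 (0.81, adjusted p = 0.128) or 2 (0.94, adjusted p = 0.0799). The exons of *LONP1* share 42 bases with *RPL36* on the opposite strand, and the strand setting of the counting is not given in the sources used here. *RPL36* was called higher in no line. Its log2 fold change was -0.06 in A549, -0.61 in HCT-116, -0.46 in PC3, where it was called lower, and -0.01 in T47D.

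**Figure D2:**
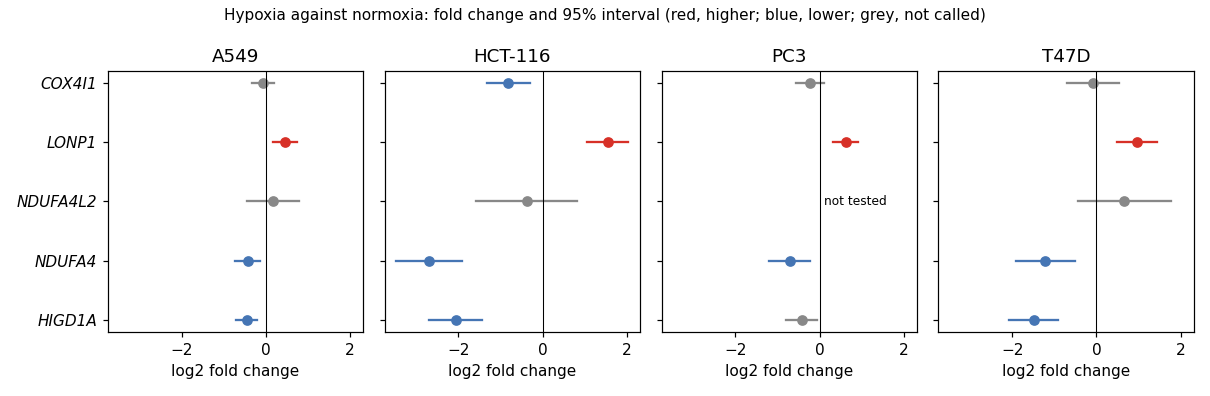
Log2 fold change, hypoxia against normoxia, of each tested member (points) with its 95% interval (lines) in each line, red for called higher, blue for called lower and grey for not called. *LONP1* is red in all 4 lines, *NDUFA4* is blue in all 4, and the *NDUFA4L2* intervals span 0 in the 3 lines where it was tested.

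*NDUFA4*, the common member of the second isoform pair, was downregulated in all 4 lines. In HCT-116 it fell from 319.6, 709 and 237 CPM in normoxia to 65.7, 79.4 and 56.9 CPM in hypoxia, the largest change of any member (log2 fold change -2.69, SE 0.36, adjusted p = 0.000155). In T47D it was 523, 676 and 284 CPM in normoxia and 210.1, 171 and 279 CPM in hypoxia (-1.21, SE 0.32, adjusted p = 0.0283). Replicate 3 of normoxia and of hypoxia were nearly level there. The groups were just apart in these CPM values, scaled over all 24 libraries, and overlapped when TMM was computed within the line. In PC3 it was 147, 133 and 262 CPM in normoxia and 115, 109.5 and 115 CPM in hypoxia, without overlap (-0.70, SE 0.22, adjusted p = 0.0339). In A549 it was 226, 215 and 155 CPM in normoxia and 136, 144 and 161 CPM in hypoxia, so that the groups overlapped (-0.43, SE 0.14, adjusted p = 0.0308).

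The fall in HCT-116 was still called with the GC and length correction (-1.84, adjusted p = 0.000728) and without normoxia replicate 2, the highest library (-1.99, adjusted p = 0.000217). With the correction the other lines were not called: -0.06 in A549 (adjusted p = 0.669), -0.30 in PC3 (adjusted p = 0.155) and -0.86 in T47D (adjusted p = 0.0803). The A549 call was also lost without normoxia replicate 1, normoxia replicate 2, hypoxia replicate 1 or hypoxia replicate 2, with values of -0.41 to -0.33. The PC3 call was lost without any single hypoxia library, at -0.71 to -0.68, and without normoxia replicate 3, the highest library, the value was -0.33 and still called (adjusted p = 0.0128). In T47D the call was lost without normoxia replicate 1, normoxia replicate 2, hypoxia replicate 1 or hypoxia replicate 2, at -1.18 to -0.90.

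*NDUFA4L2*, the paralog, was counted at a low level and was called in no line. Its 24 libraries held between 2 and 156 counts. In A549, where it was highest, it was 2.04, 1.62 and 1.81 CPM in normoxia and 2.74, 1.60 and 1.74 CPM in hypoxia (log2 fold change 0.16, 95% interval -0.46 to 0.78). In HCT-116 it was 0.442, 1.02 and 0.647 CPM in normoxia and 0.451, 0.900 and 0.247 CPM in hypoxia (-0.38, -1.57 to 0.81). In T47D it was 0.291, 1.02 and 0.537 CPM in normoxia and 1.17, 0.744 and 1.13 CPM in hypoxia (0.66, -0.45 to 1.77). The groups overlapped in each of these lines. In PC3 the counts were 2, 11 and 5 in normoxia and 11, 17 and 5 in hypoxia. The intervals leave room for a rise of up to 1.77 on the log2 scale in T47D, where the value was 1.27 without normoxia replicate 2 (0.04 to 2.50, adjusted p = 0.205) and 0.35 without normoxia replicate 1. Leaving out hypoxia replicate 1 in A549, or normoxia replicate 2 in HCT-116, changed its sign (to -0.11 and 0.06), and it was called in none of these. *NDUFA4L2* shares 33 bases with *SHMT2* on the opposite strand, whose libraries held 5540 to 21294 counts.

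The share of *NDUFA4L2* in the sum of *NDUFA4* and *NDUFA4L2* was taken from counts per kilobase of transcript in each library. It was 1.99% ± 0.430 (SD, n = 3) in normoxic and 2.93% ± 1.07 in hypoxic A549, with a range of 1.60% to 2.45% and of 2.28% to 4.16%. In HCT-116 it was 0.397% ± 0.163 in normoxia (0.298% to 0.585%) and 1.59% ± 0.738 in hypoxia (0.928% to 2.39%). In PC3 it was 0.188% ± 0.114 in normoxia (0.120% to 0.320%) and 0.429% ± 0.250 in hypoxia (0.161% to 0.656%). In T47D it was 0.284% ± 0.148 in normoxia (0.120% to 0.407%) and 0.993% ± 0.168 in hypoxia (0.864% to 1.18%). The hypoxia libraries lay above all normoxia libraries in HCT-116 and T47D and overlapped them in A549 and PC3. In HCT-116 and T47D *NDUFA4* was called lower and *NDUFA4L2* was not called. The shares carry no correction for GC content, which is 39.4% for *NDUFA4* and 63.2% for *NDUFA4L2*. With the GC and length correction in edgeR, the fall of *NDUFA4* was called in HCT-116 (-1.84, adjusted p = 0.000728). It was not called in T47D (-0.86, adjusted p = 0.0803). *NDUFA4* held over 95% of the pair in every library. As shares of counts, the highest library, A549 hypoxia replicate 1, had 1.97% (exact 95% binomial interval 1.68 to 2.30%) and the lowest, PC3 normoxia replicate 1, 0.0556% (0.00674 to 0.201%), intervals that cover counting error alone.

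**Figure D3:**
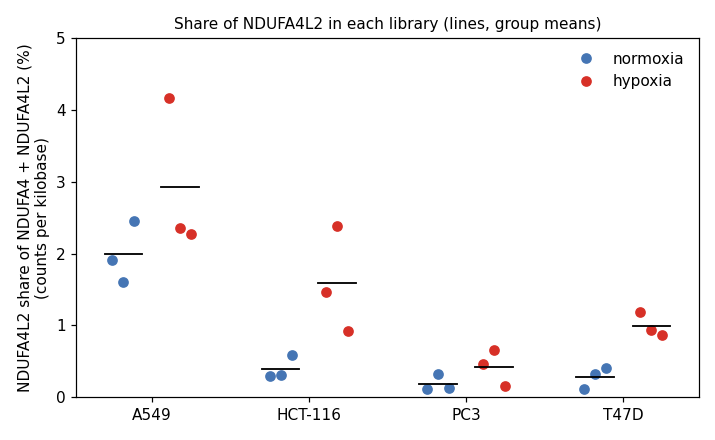
Share of *NDUFA4L2* in *NDUFA4* plus *NDUFA4L2* (percent, from counts per kilobase, not corrected for GC content) in each normoxia (blue) and hypoxia (red) library, with group means as black lines. The highest library is at 4.16%, in hypoxic A549, and the groups are separate in HCT-116 and T47D.

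*HIGD1A*, of the hypoxia-inducible domain family, was downregulated in A549, HCT-116 and T47D. In HCT-116 it was 391, 641 and 306 CPM in normoxia and 131, 93.3 and 102 CPM in hypoxia (log2 fold change -2.07, SE 0.29, adjusted p = 0.000181). In T47D it was 252, 301 and 177 CPM in normoxia and 80.4, 69.1 and 117 CPM in hypoxia (-1.49, SE 0.27, adjusted p = 0.00555). In A549 it was 158, 155 and 140.0 CPM in normoxia and 96.7, 111 and 122 CPM in hypoxia (-0.45, SE 0.11, adjusted p = 0.00863). In all these lines every hypoxia library lay below every normoxia library. In PC3 it was 221, 198 and 322 CPM in normoxia and 198, 185 and 178 CPM in hypoxia, and did not pass the test (-0.43, SE 0.17, adjusted p = 0.0720).

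With the GC and length correction *HIGD1A* was called lower in HCT-116 (-1.17, adjusted p = 0.00232) and T47D (-1.09, adjusted p = 0.0170) and not in A549 (-0.10, adjusted p = 0.445) or PC3 (-0.04, adjusted p = 0.822). The T47D call was lost without normoxia replicate 1 (-1.45, adjusted p = 0.0658), and PC3 was called without normoxia replicate 2 (-0.57, adjusted p = 0.00928), whereas without normoxia replicate 3, the highest library, its value was -0.18 (adjusted p = 0.127). The annotation names 17 *HIGD1A* pseudogenes, 2 of *COX4I1* and 2 of *NDUFA4*, none of which has its own row in the counts, so reads shared with these copies are uncertain. *HIGD1A* also overlaps 2 other annotated genes on its own strand.

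**Figure D4:**
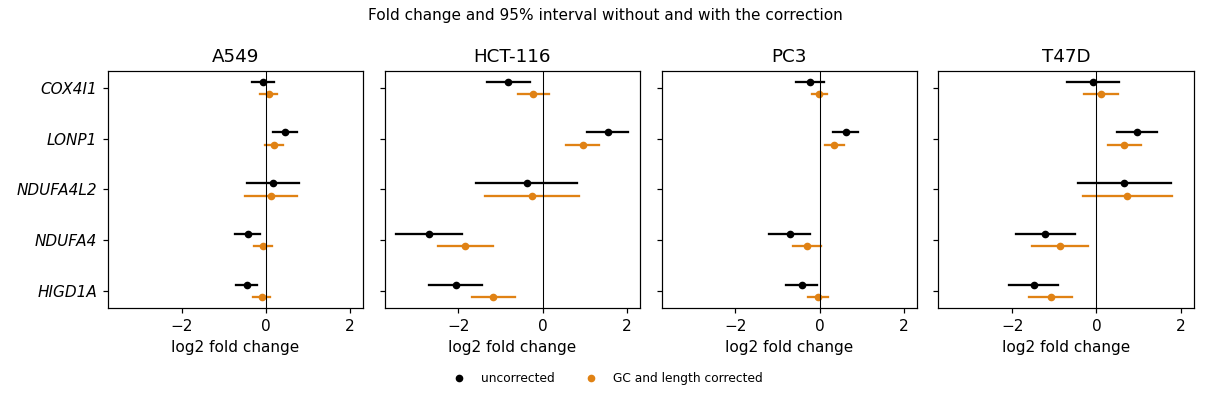
Log2 fold change, hypoxia against normoxia, and 95% interval of each tested member without (black) and with (orange) the correction for transcript GC content and length, by line. In A549 the *NDUFA4* and *HIGD1A* points move to -0.06 and -0.10, whereas in HCT-116 they stay at -1.84 and -1.17.

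To compare lines, the difference of the hypoxia effects was tested in a single fit of all 24 libraries. The effect differed between the 4 lines for *LONP1*, *NDUFA4* and *HIGD1A* (interaction, adjusted p = 0.0140, 0.00795 and 0.00487), as it did for 18.3% of all genes, and the test was not passed by *COX4I1* (adjusted p = 0.262) or *NDUFA4L2* (adjusted p = 0.669). *LONP1* rose more in HCT-116 than in A549, by 1.21 on the log2 scale (the A549 minus HCT-116 difference was -1.21, adjusted p = 0.00638), and than in PC3, by 0.996 (adjusted p = 0.0175). *NDUFA4* fell more in HCT-116 than in A549, by 2.13 (adjusted p = 0.00470), than in PC3 (HCT-116 minus PC3 -1.91, adjusted p = 0.00819) and than in T47D (-1.43, adjusted p = 0.0463). *HIGD1A* fell more in HCT-116 than in A549, by 1.49 (adjusted p = 0.00651), and than in PC3 (-1.57, adjusted p = 0.00481). No other pair was called for these genes, with *HIGD1A* in A549 against T47D at 0.96 (95% interval 0.26 to 1.65, adjusted p = 0.166) and PC3 against T47D at 1.04 (0.34 to 1.73, adjusted p = 0.120). The share of all genes that differed was 16.7% for A549 against HCT-116, 14.9% for HCT-116 against PC3 and 9.07% for HCT-116 against T47D, while it was 0.758% for A549 against PC3, 2.11% for A549 against T47D and 2.25% for PC3 against T47D. With the GC and length correction the interaction held for all 3 genes (adjusted p = 0.0135, 0.0148 and 0.00799). Among the pairs, *NDUFA4* in HCT-116 against T47D was then not called (-0.86, adjusted p = 0.158) and *HIGD1A* in PC3 against T47D was (1.06, adjusted p = 0.0330). Leaving out replicate 1, or replicate 2, of every line ended all 3 (adjusted p = 0.0705 to 0.279).

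In normoxia the order of the lines differed from gene to gene. *COX4I1* was highest in HCT-116 (703 ± 183 CPM, SD, n = 3), then T47D (437 ± 51.8), A549 (353 ± 36.3) and PC3 (257 ± 57.1), and neither T47D and A549 nor A549 and PC3 were called different. *LONP1* was highest in PC3 (278 ± 58.4 CPM), then A549 (133 ± 19.6), HCT-116 (114 ± 30.4) and T47D (85.1 ± 23.0), and A549 and HCT-116 were not called different. *NDUFA4* was highest in T47D (494 ± 198 CPM) and HCT-116 (422 ± 252), which were not called different, above A549 (199 ± 37.7) and PC3 (181 ± 70.8), which also were not. *HIGD1A* was highest in HCT-116 (446 ± 174 CPM), then PC3 (247 ± 66.2) and T47D (243 ± 62.5), which were not called different, then A549 (151 ± 9.49). *NDUFA4L2* was highest in A549 (1.82 ± 0.211 CPM), then HCT-116 (0.702 ± 0.291) and T47D (0.616 ± 0.371), which were not called different, then PC3 (0.144 ± 0.0588). Of 30 comparisons of tested members between pairs of lines, 23 were called, against 65.0% of all genes for A549 against HCT-116, 60.5% for A549 against PC3, 67.7% for A549 against T47D, 66.0% for HCT-116 against PC3, 69.0% for HCT-116 against T47D and 68.1% for PC3 against T47D.

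Among other genes of complex IV, the calls without the correction were downward. Of 9 further nuclear core subunits, 2 were downregulated in A549, 7 in HCT-116, 5 in PC3 and 1 in T47D, and none was upregulated. Of all genes, 17.8%, 27.0%, 15.7% and 6.69% were called lower in these lines, so that the counts in A549 and T47D are near the background. The medians of their log2 fold changes were -0.15, -1.13, -0.35 and -0.40, against -0.01, -0.03, -0.01 and -0.01 over all genes. *COX7B*, a small membrane subunit, was called lower in all 4 lines (-0.58 in A549, -2.52 in HCT-116, -0.97 in PC3 and -1.27 in T47D). Of 25 assembly factors, 12 were lower in A549, 17 in HCT-116, 8 in PC3 and 6 in T47D, with medians of -0.38, -1.15, -0.36 and -0.51. *COA6*, a factor for copper delivery, was lower in all 4 (-0.89, -2.19, -0.78 and -1.11), as was *COA7* (-0.76, -0.98, -0.45 and -0.94), which is listed under its older symbol *SELRC1*. With the GC and length correction, the core subunits called lower were 0, 2, 1 and 0 and the assembly factors 10, 14, 8 and 1, against 16.7%, 23.2%, 13.0% and 6.24% of all genes, so that the core subunits were at or below the background. The correction also called *COX8A* higher in HCT-116 and *COX20* higher in A549, against 16.1% and 15.3% of all genes called higher in those lines. *COA7* was called lower in all 4 lines, while *COX7B* lost its call in A549 and T47D and *COA6* in PC3 and T47D. *COX7B* in T47D was also not called with the replicate block.

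Complex I subunits were also called lower more often than higher. Of 37 nuclear subunits, 12 were lower in A549, 28 in HCT-116, 10 in PC3 and 5 in T47D, with medians of -0.26, -1.02, -0.33 and -0.44, and *NDUFV1*, the flavin-binding subunit, was the 1 upregulated, in HCT-116 (0.59). The lower shares of all genes were again 17.8%, 27.0%, 15.7% and 6.69%. *NDUFA12*, *NDUFAB1* and *NDUFB3* were lower in all 4 lines, the last at -0.69 in A549, -2.57 in HCT-116, -0.66 in PC3 and -1.12 in T47D. With the correction 6, 14, 4 and 1 were called lower, against 16.7%, 23.2%, 13.0% and 6.24% of all genes, and *NDUFV1*, *NDUFB4* and *NDUFS6* were called higher in HCT-116. *NDUFB3* was then called lower in HCT-116 alone, *NDUFAB1* in A549 and HCT-116 and *NDUFA12* in no line. In T47D, where same-numbered libraries correlated at 0.115 to 0.258, the fit with the replicate block called 8 complex I subunits lower. It called 0 complex IV core subunits lower, and 1485 genes lower in all against 942.

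Of 18 other mitochondrial proteases and chaperones, none was upregulated in A549, PC3 or T47D, where 17.6%, 16.6% and 6.55% of all genes were, and 7, 5 and 0 were lower, against 17.8%, 15.7% and 6.69%. In HCT-116, 4 were upregulated, near the background of 23.3%, and 4 downregulated, against 27.0%: *CLPP*, the peptidase of the ClpXP protease (0.70), *PITRM1* (0.67), *TRAP1* (0.66) and *AFG3L2* (0.59) rose, while the co-chaperonin *HSPE1* (-1.66), the peptidases *OMA1* (-1.10) and *PMPCB* (-0.94) and *DNAJA3* (-0.51) fell. The medians were -0.22, 0.13, -0.11 and -0.07. With the correction 1, 3, 1 and 0 of the 18 were called higher, against 15.3%, 16.1%, 11.7% and 7.34% of all genes. Called lower were 2, 2, 4 and 2, against 16.7%, 23.2%, 13.0% and 6.24%. Of the 4 that rose in HCT-116 only *CLPP* was then called, and of the 4 that fell only *DNAJA3*.

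**Figure D5:**
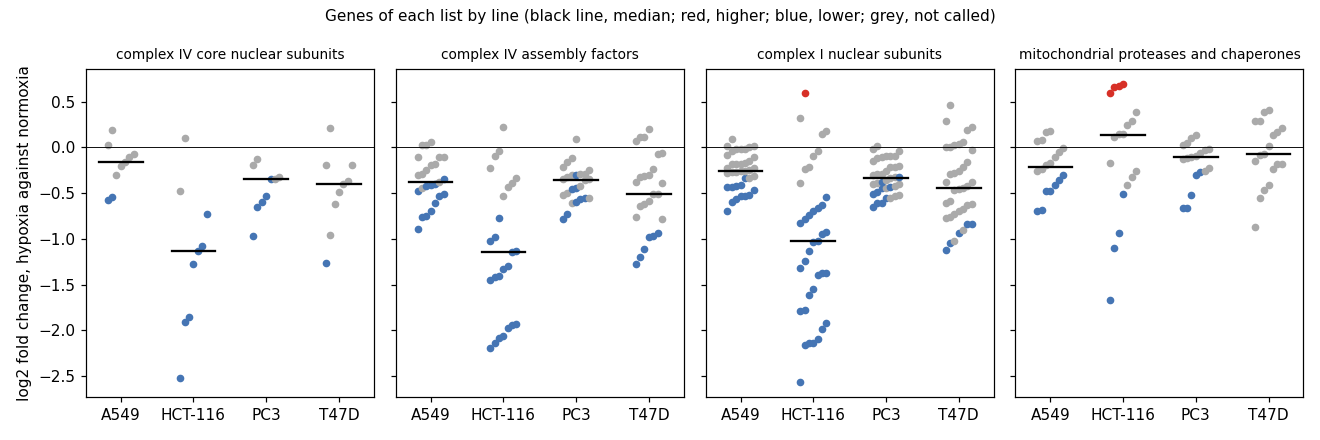
Log2 fold change, hypoxia against normoxia, of each gene of 4 lists (points, spread sideways for legibility) by line, with the list's median as a black line, red for called higher, blue for called lower and grey for not called. Lower calls predominate among complex IV and complex I genes, most in HCT-116, and the medians of the 18 proteases and chaperones lie between -0.22 and 0.13.

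Other isoforms of complex IV subunits were mostly undetected. *COX6A2* had 0 counts in all libraries, *COX7A1* and *COX8C* at most 4, and *COX7B2* had 17 to 260 counts in T47D, where it was lower (-2.39, adjusted p = 0.0136), and 0 elsewhere. *COX7A2L*, a factor for supercomplex assembly, was lower in HCT-116 (-1.39) and PC3 (-0.49), in neither with the GC and length correction, which called it higher in A549 (-0.01 uncorrected). *C15orf48*, a paralog of *NDUFA4*, was not called, with 313 to 1783 counts in A549 (1.03, adjusted p = 0.0580), 2 to 23 in HCT-116 (-1.06), 231 to 612 in PC3 (0.09) and 49 to 105 in T47D (0.04). It was called higher in A549 with the replicate block, and in A549 and PC3 with the GC and length correction. *COX6B2* was tested in 3 lines and not called (-0.05 in A549, 0.29 in HCT-116 and 0.81 in PC3). Within the *HIGD1A* family, *HIGD2A* was higher in HCT-116 (0.57, adjusted p = 0.0162) and was 0.29, 0.12 and 0.52 in A549, PC3 and T47D without a call, and with the GC and length correction it was called higher in A549 and T47D too. *HIGD1B*, *HIGD1C* and *HIGD2B* had at most 12 counts in any library. The subunits encoded in mitochondrial DNA have no row in the counts and were not analysed here.

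Factors linked to *COX4I2* transcription were expressed in all lines although *COX4I2* itself was near 0. *RBPJ* was upregulated in A549 (0.66), HCT-116 (0.90) and PC3 (0.29) and missed the test in T47D (0.63, adjusted p = 0.0546), and like *LONP1* it is on the list the study chose partly on these libraries. *EPAS1*, encoding HIF-2α, was higher in A549 (0.54), HCT-116 (2.05) and PC3 (0.52) and was -0.02 in T47D. *HIF1A*, encoding HIF-1α, was lower in A549 (-1.36) and T47D (-0.72) and was -0.44 and -0.14 in HCT-116 and PC3. *CXXC5* was higher in HCT-116 (1.03) and PC3 (1.06), *ARNT* in HCT-116 (0.66), and *CHCHD2* was lower in HCT-116 (-1.001). In total, 2, 4, 3 and 0 of these 6 genes were higher in A549, HCT-116, PC3 and T47D, and 1, 1, 0 and 1 lower, against 17.6%, 23.3%, 16.6% and 6.55% of all genes higher and 17.8%, 27.0%, 15.7% and 6.69% lower. With the replicate block *RBPJ* was called higher in T47D. The GC and length correction ended the calls of *EPAS1* in PC3, *HIF1A* in T47D, and *ARNT* and *CHCHD2* in HCT-116, and added higher calls of *ARNT* and *RBPJ* in T47D. The overlapping neighbor of *COX4I1*, *EMC8*, was lower in HCT-116 (-0.56), and *SHMT2*, the neighbor of *NDUFA4L2*, was higher there (0.80).

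Across the 24 libraries, the genes whose log2 CPM followed each member most closely were *RAB8A* (Pearson r = 0.97) for *LONP1*, and *C14orf142* (0.98), *SAR1B* (0.97) and *PSMA6* (0.97) for *NDUFA4*. For *HIGD1A* they were *EEF1E1* (0.97), *ASF1A* (0.97) and *HRSP12* (0.96), for *COX4I1* *AKR1A1* (0.96), *HAGHL* (0.95) and *RPL10A* (0.95), and for *NDUFA4L2* *COL26A1* (0.94), *TK2* (0.91) and *TRAF1* (0.91). Between members, *NDUFA4* and *HIGD1A* had r = 0.63 over all libraries and 0.89 after removing group means, and *LONP1* and *NDUFA4* had -0.85 and -0.65. These are descriptions over 24 libraries that share lines, oxygen states and base composition. In the HCT-116 normoxia replicate 2 library, *COX4I1*, *NDUFA4* and *HIGD1A* were at their highest in that line and *LONP1* at its lowest. With each gene set against its mean in HCT-116, low-GC genes there stood 0.41 above the others on the log2 scale. Genes with transcripts under 1000 bases stood 0.64 above longer ones. Both deviations from the line's own mean were the highest of the 24 libraries. The part of base composition in these values was tested only through the correction given with each gene.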

How the data were processed

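Poly(A) RNA from 24 libraries was sequenced with a directional kit. Per the labels and the study's methods, the authors trimmed reads with Trim Galore 0.3.3, aligned them to GRCh37 with HISAT2, removed non-uniquely mapped fragments with Picard 2.0.1 and deposited raw read counts per UCSC gene from HTSeq 0.5.4p3 in intersection-strict mode, so reads that align equally well to a gene and its pseudogenes may be missing. The strand setting is not given in the sources used here.

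From these deposited counts, each line was fitted with edgeR 4.0.16 (R 4.3.3) by quasi-likelihood with filterByExpr and TMM, with oxygen state as the term, and a single fit of all 24 libraries gave differences between lines. P-values were adjusted by Benjamini-Hochberg over all genes tested. The study's methods name DESeq2, which was run as an alternative (version 1.42.0). Gene levels in CPM were computed on library totals scaled by TMM over all 24 libraries, and the limits set by 3 counts on totals alone. Replicates are separate libraries, and nothing says that they came from separate cultures, so p-values measure the spread between these libraries. Transcript lengths, GC content, positions and promoter letters came from the GRCh37 genome and its lifted GENCODE annotation, which matched 21578 of 23106 symbols (93.4%). The GC and length correction modelled each library with natural splines (5 degrees of freedom) and was chosen after seeing the data. Other alternatives were another scaling, no filter, the replicate block and each library left out. Scripts were tested on simulated data. The 6 genes, the lists and the tests were chosen with earlier results of these data known. The genes named were the 6 members, from each pathway list those called the same way in all 4 lines, every gene of the small lists (isoforms, HIGD family, factors, overlapping genes), and the 3 genes most correlated with each member. Some items these rules select are not reported here. The proteases and chaperones called in HCT-116, *NDUFV1* and *SHMT2* fall outside this rule and were named after their values were seen.

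Only in T47D did the deviations of every same-numbered normoxia and hypoxia library correlate over 0.1, at 0.115 to 0.258. All 12 same-numbered pairs had positive values, at 0.0446 to 0.258, and 23 of 24 libraries correlated best with their own number. The numbers thus carried some shared structure in the other lines too. These correlations are weak and do not establish that the samples were paired. The main fit of each line did not use the numbers, and the replicate block did.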

Additional observations from a re-analysis of the deposited data

Results flagged for a closer look

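The hypoxia effect differed between the 4 lines, by the interaction test over all 24 libraries in edgeR, for 3 genes. For *LONP1* the adjusted p was 0.0140, with log2 fold changes of 0.45 in A549, 1.55 in HCT-116, 0.62 in PC3 and 0.96 in T47D. For *NDUFA4* the adjusted p was 0.00795, with -0.43, -2.69, -0.70 and -1.21. For *HIGD1A* the adjusted p was 0.00487, with -0.45, -2.07, -0.43 and -1.49. These fold changes come from the separate fit of each line. In the single fit that gave the p-values, *LONP1* was at 0.46, 1.67, 0.67 and 1.03. *NDUFA4* was at -0.42, -2.55, -0.64 and -1.12 there, and *HIGD1A* at -0.45, -1.94, -0.37 and -1.41. In both kinds of fit all 3 differ in size and not in direction, and HCT-116 had the largest value for each. HCT-116 also had the widest separation of low-GC genes between its normoxia libraries (0.15 to 0.41) and its hypoxia libraries (-0.29 to -0.25). With the GC and length correction the adjusted p were 0.0135, 0.0148 and 0.00799. Without replicate 1 of every line they were 0.0761, 0.0995 and 0.0705, and without replicate 2, 0.279, 0.114 and 0.240.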

How the results depend on the processing

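No member's called direction reversed under any alternative. With RLE size factors or the replicate block no member's call changed in any line, and the number of members whose effect differed between lines stayed at 3 with the block. Same-numbered libraries correlated at 0.0446 to 0.236 in A549, HCT-116 and PC3, where not every pair was over 0.1. Of all 24 libraries, 23 correlated best with their own number. Members called higher in A549 were 0 with total counts alone (*LONP1* 0.34, adjusted p = 0.0561), with a single fit of 24 libraries and with the GC and length correction, with or without the block. Members called lower in A549 were 0 with the single fit and with the correction, with or without the block. Members called lower in PC3 were 2 with total counts alone, no filter or DESeq2, which added *HIGD1A* (adjusted p = 0.0326 to 0.0482), and 0 with the single fit and with the correction, with or without the block. In T47D the correction, with or without the block, left 1 member called lower. Leaving out each library gave 0 to 1 members called higher and 1 to 2 lower in A549, 0 to 2 lower in PC3, and 0 to 1 higher and 0 to 2 lower in T47D, and leaving out each replicate number gave 0 to 3 members whose effect differed between lines. As a share of counts, not divided by length, *NDUFA4L2* was 0.933% in A549 normoxia and 1.38% in A549 hypoxia, 0.184% and 0.745% in HCT-116, and 0.132% and 0.462% in T47D. Under total counts alone, the typical gene (median) stood at -0.13 in A549 and -0.12 in T47D on the log2 scale. Calls among all genes in T47D fell from 922 higher and 942 lower to 180 and 19 without normoxia replicate 1. Low counts kept *COX4I2* out of the tests in every line and *NDUFA4L2* in PC3.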
